A study of Caenorhabditis elegans with 4 samples.

Results

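The genes described here encode subunits of the mitochondrial protein import translocases of Caenorhabditis elegans. They are tomm-70, tomm-20, tomm-22 and tomm-40 of the outer membrane and timm-23 and timm-17B.1 of the inner membrane. These 6 genes were found among the 13685 genes tested by matching the sequence name of each array probe to the RefSeq gene table. The gene tomm-70 was chosen by its measured ratio, the lowest of all genes tested, so its values are a description without a test. The other 5 were chosen as its complex partners by function, with earlier results of these data known.

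RNA from whole worms, synchronized at mid-L4 and raised at 20 C with OP50 as food, was compared on 4 arrays with Cy5 and Cy3. The genotypes were isp-1(qm150);ceh-23(ms23), called the double mutant here, and isp-1(qm150). The isp-1 allele, in the Rieske iron-sulfur protein of respiratory complex III, was carried by both, so no wild type was measured. CEH-23 is a homeodomain protein, and the study asked which transcripts depend on it under stress of the electron transport chain. Each array held both genotypes, and replicate 1 was measured on a dye-exchanged pair, which was averaged, so n = 3. Of that pair, the dye-flip array had the double mutant in Cy5 and the first array had it in Cy3. Replicate 2 had it in Cy5 and replicate 3 in Cy3. Both arrays of replicate 1 shared a slide, as did replicates 2 and 3, and the number of arrays limits the precision of every value. No spot was saturated, and the share of spots well above background ran from 62.4% to 77.5% for the double mutant and from 62.2% to 78.4% for isp-1. For ceh-23 itself, read by 1 probe, the log2 ratio was -0.09 (SD 0.10), and that probe was well above background in replicates 2 and 3 but not in replicate 1. The ratio of this dim probe depended on the processing. With the scanner's own log ratios it was -0.478 on the dye-flip array and -1.025 on the first array, both of replicate 1. In replicates 2 and 3 it was then -0.271 and -0.294. The files do not place the probe relative to the ms23 lesion, so it checks neither genotype. The isp-1 transcript had 0.08 (SD 0.10), and qm150 was shared.

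Nearly all mitochondrial proteins are made in the cytosol and pass the outer membrane through the TOM complex. From work in yeast and mammalian cells, TOM20 and TOM22 are receptors for proteins with a cleavable presequence and TOM40 is the channel. In the same systems TOM70 binds carrier proteins and other hydrophobic precursors that arrive with cytosolic HSP70 and HSP90. Proteins with a presequence then cross the inner membrane through TIM23 and its partner TIM17. In worms, slowed import is sensed by the transcription factor ATFS-1, which moves to the nucleus and induces mitochondrial chaperones.

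The signal of the tomm-70 probe (ZK370.8, chromosome III) was 5.42-fold lower in the double mutant than in isp-1 (log2 ratio -2.44, SD 0.13, n = 3), while each of the 5 partners differed by at most 1.21-fold. In the double mutant its median pixel signal was 1123 on the dye-flip array and 965 on the first array, both of replicate 1, then 573 in replicate 2 and 609.5 in replicate 3. In isp-1 the same arrays gave 8234.5, 6096.5, 5423 and 1711.5, over local backgrounds of 36 to 65 in both genotypes. The isp-1 signal of replicate 3 was the dimmest of the 4, and that channel was dim for the whole array, with a median spot signal of 109.5. The probe was well above background in both genotypes on all 4 arrays.

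Levels were taken after loess normalization within arrays and quantile normalization of average spot intensities between arrays. The log2 level of tomm-70 was then 9.75, 9.83, 9.64 and 9.56 in the double mutant, in the same order of arrays. In isp-1 it was 12.59, 11.99, 11.93 and 12.09. The levels did not overlap, and the highest of the double mutant lay far below the lowest of isp-1. Since tomm-70 was chosen by its ratio in these data, this gap is a description. How many of all genes lacked overlap was not counted. Over replicates the level averaged 9.66 ± 0.11 in the double mutant and 12.10 ± 0.18 in isp-1 (SD, n = 3 each). Only 1 probe read tomm-70, so less transcript and a sequence difference under that probe cannot be told apart. In whole animals, fewer cells that express a gene and less RNA per cell cannot be told apart.

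**Figure D1:**
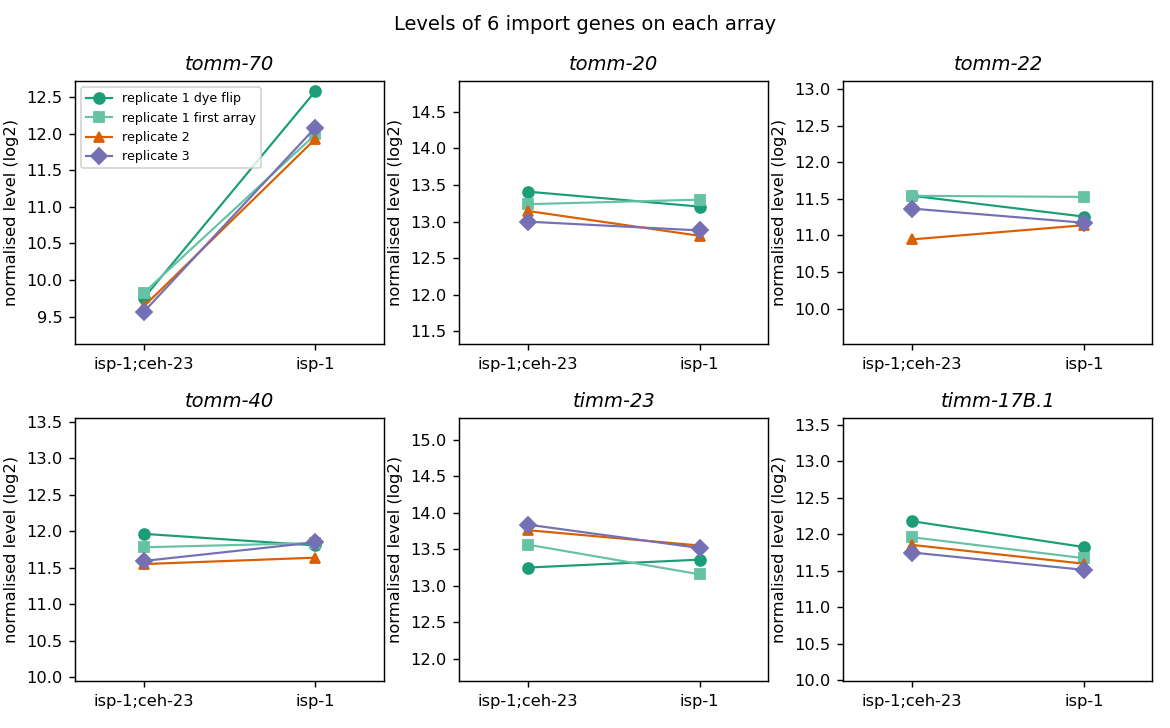
Normalised log2 level of each of the 6 import genes in the double mutant isp-1;ceh-23 and in isp-1, with a line for each of the 4 arrays and a y axis of equal span in every panel. The lines of tomm-70 lie at 9.56 to 9.83 in the double mutant and at 11.93 to 12.59 in isp-1. Levels of the other 5 genes overlap when compared across arrays, although timm-17B.1 is higher in the double mutant within each of the 4 arrays. How many of all genes lacked overlap was not counted.

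The presequence receptor gene tomm-20 (F23H12.2, chromosome V) had log2 levels of 13.41, 13.24, 13.14 and 12.998 in the double mutant on the dye-flip array, the first array, replicate 2 and replicate 3. In isp-1 its levels were 13.20, 13.30, 12.804 and 12.88, and the genotypes overlapped. Its log2 ratio averaged 0.18 (SD 0.14, n = 3, limma adjusted p = 0.267), with a 95% interval of -0.08 to 0.43. Levels of the central receptor gene tomm-22 (W10D9.5, chromosome II) were 11.54, 11.54, 10.95 and 11.37 in the double mutant, against 11.26, 11.53, 11.14 and 11.17 in isp-1. These overlapped, and replicate 2 went the other way from replicates 1 and 3. The log2 ratio of tomm-22 averaged 0.05 (SD 0.21, n = 3, limma adjusted p = 0.775), with a 95% interval of -0.24 to 0.34. Thus neither of the other receptor genes passed the threshold of 0.05, adjusted over all 13685 genes.

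The channel gene tomm-40 (C18E9.6, chromosome II) had levels of 11.96, 11.78, 11.55 and 11.59 in the double mutant and 11.81, 11.84, 11.64 and 11.85 in isp-1. The genotypes overlapped, and tomm-40 was the single partner with a negative mean, at -0.10 (SD 0.15, n = 3, limma adjusted p = 0.532, 95% interval -0.36 to 0.16). That sign turned with the scanner's own log ratios, which gave 0.04. The small subunit gene tomm-7 (ZK652.2, chromosome III), whose product in yeast acts in assembly of the complex, had a mean log2 ratio of 0.01 over 6 probes (SD 0.21, limma adjusted p = 0.935).

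At the inner membrane, timm-23 (F15D3.7, chromosome I), for the presequence channel, had levels of 13.25, 13.56, 13.76 and 13.84 in the double mutant. In isp-1 they were 13.36, 13.16, 13.55 and 13.52, and the genotypes overlapped. The double mutant was lower on the dye-flip array and higher on the other arrays, and the log2 ratio averaged 0.23 (SD 0.09, n = 3, limma adjusted p = 0.156, 95% interval -0.01 to 0.47). Its partner gene timm-17B.1 (E04A4.5, chromosome IV) had levels of 12.18, 11.96, 11.85 and 11.75 in the double mutant, against 11.83, 11.67, 11.60 and 11.51 in isp-1. It was higher in the double mutant on each of the 4 arrays, although the levels overlapped between arrays. The mean log2 ratio of timm-17B.1 was 0.27 (SD 0.04, n = 3), the largest among the partners. Its limma adjusted p was 0.106 and its 95% interval, not adjusted for the number of genes, was 0.04 to 0.50.

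**Figure D2:**
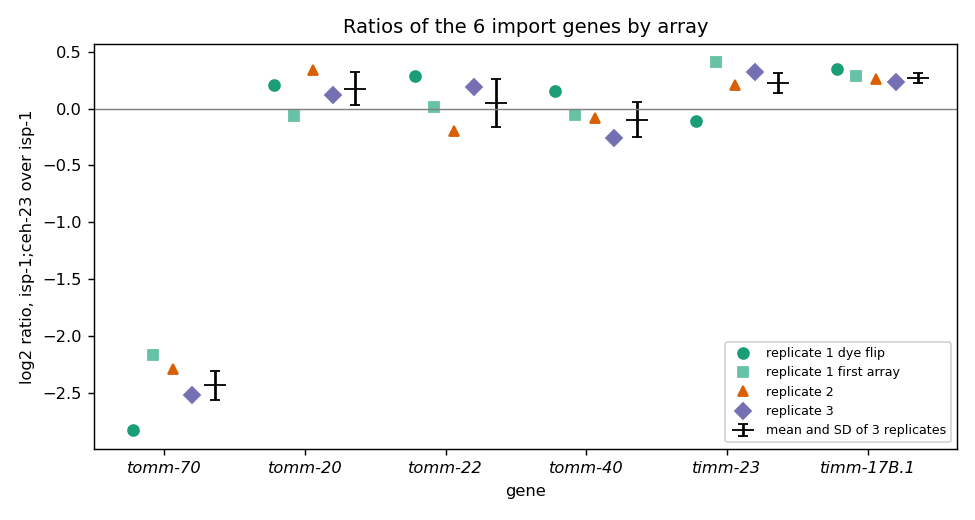
Log2 ratio of the double mutant isp-1;ceh-23 over isp-1 for each of the 6 import genes, with a point for each of the 4 arrays and a bar for the mean and SD of the 3 replicates. The points of tomm-70 lie between -2.83 and -2.17, and those of the other 5 genes lie between -0.25 and 0.41.

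Of the 5 partners, 0 passed an adjusted p of 0.05 in limma and 1, timm-17B.1, had an unadjusted p under 0.05. Over all genes tested 3.37% passed the adjusted threshold, 0.775% higher and 2.59% lower in the double mutant, and 35.9% had an unadjusted p under 0.05. That background moved with the setting, and 459 of the 461 genes that passed had a limma adjusted p of 0.049 to 0.05. With 1 replicate left out, 103 genes passed without replicate 1, 1 without replicate 2 and 5939 without replicate 3. With all replicates, 2 passed without background correction, 0 with median centring, 1 without a filter on dim probes and 1734 with the scanner's log ratios. None of the partners passed under any of the 18 other settings, and the smallest adjusted p among them was 0.053. One partner, timm-17B.1, had a positive ratio on all 4 arrays, which 20.9% of all genes had. The ratio of tomm-70 was negative on all 4 arrays, as it was for 25.3% of all genes.

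Set against its partners, tomm-70 was lower by a similar amount in every replicate. Its log2 ratio minus the mean of the 5 partners was -2.65, -2.40 and -2.64 in replicates 1, 2 and 3. The 2 arrays averaged in replicate 1 lay further apart, at -3.01 on the dye-flip array and -2.28 on the first array. The mean difference was -2.56 (SD 0.14, n = 3), which corresponds to 5.91-fold. The partners themselves averaged 0.15, 0.11 and 0.12 in the 3 replicates. This difference is given without a test, because tomm-70 was chosen for its ratio in the same contrast.

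The ratio of tomm-70 varied little between replicates, unlike that of the other genes with low ratios. It was -2.50, -2.29 and -2.52 in replicates 1, 2 and 3, and 31.3% of all genes had a smaller SD. The 49 genes with the next lowest means, from -2.26 to -1.65, had SDs of 0.53 to 1.25 with a median of 0.81. All 49 were nearer to 0 in replicate 3 than in replicate 1, with medians of -2.54, -1.96 and -0.97 in the 3 replicates. By contrast, tomm-70 was no nearer to 0 in replicate 3. These 49 genes were picked by their ratios, so their values are a description. Replicates 2 and 3 also differed in dye, and replicate 1 averaged both dyes, so replicate and dye cannot be told apart here.

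Transcripts of yolk, sperm and oocytes, which depend on stage and on the germline, were also lower in the double mutant and differed in size between replicates. All 6 vitellogenin genes were negative, with medians of -2.72, -1.99 and -0.90 in replicates 1, 2 and 3. The 22 major sperm protein genes tested had medians of -1.83, -1.29 and -0.53, and all were negative. The 18 germline and oocyte genes had medians of -1.29, -1.26 and -0.51, and again all were negative. Over all 13685 genes tested, 6609 had a positive mean. In limma 5, 10 and 11 members of these lists fell and 0 rose, beside 2.59% lower over all genes. Without replicate 2 those counts were 0, as they were without background correction, with median centring, without a filter on dim probes and with outlier spots kept, while the list medians without replicate 2 were -1.803, -1.142 and -0.947. Without replicate 1 the counts were 5, 0 and 6, and without replicate 3 they were 6, 22 and 17. Over all genes, 94 were lower without replicate 1 and 3921 were lower without replicate 3. Body wall muscle, neuron, intestine and hypodermis markers had medians of 0.27, 0.36, 0.12 and 0.22, with 0 past the threshold in limma. Over all genes 3.37% were past it. Of the 7, 8, 6 and 6 genes in these marker lists, 3, 6, 1 and 2 had an unadjusted p under 0.05, all higher. Over all genes 35.9% had one in either direction. Without replicate 3 the numbers past the adjusted threshold were 5, 6, 1 and 2, all higher, beside 2018 higher over all genes. In replicate 3, where these reproductive transcripts were nearest to 0, tomm-70 had a ratio of -2.52 and the partners averaged 0.12. Replicate and dye cannot be told apart in these lists either.

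**Figure D3:**
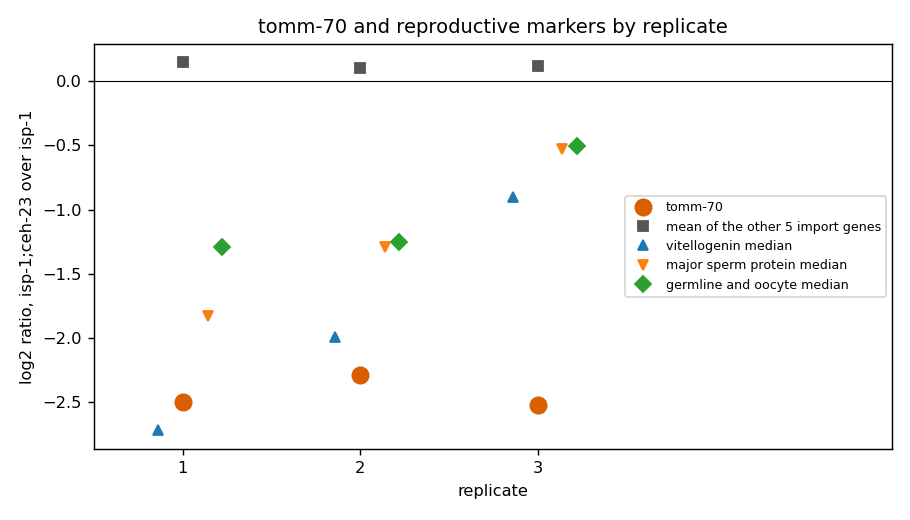
Log2 ratio of the double mutant isp-1;ceh-23 over isp-1 in each of the 3 replicates for tomm-70, for the mean of the other 5 import genes and for the medians of 3 lists of reproductive transcripts. The lists lie between -0.90 and -0.51 in replicate 3, whereas tomm-70 lies between -2.52 and -2.29 in all replicates. The double mutant was in Cy5 in replicate 2 and in Cy3 in replicate 3, and replicate 1 averaged both dyes.

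The genes whose ratios on the 4 arrays were nearest to those of tomm-70 still lay at some distance. Likeness was measured as the root mean square difference over the 4 arrays, in log2 units. It was 0.64 for F55B11.3, 0.66 for ule-5, a uterine lumen gene by its name, 0.68 for Y62H9A.3, 0.70 for W02D9.7 and 0.71 for Y62H9A.4. The nearest of these, F55B11.3, averaged -1.95 (SD 0.64). Each of the 5 was nearer to 0 in replicate 3, between -1.33 and -1.19, than in replicate 1, between -2.78 and -2.31. Within replicate 1 each was also nearer to 0 on the first array, with the double mutant in Cy3, than on the dye-flip array. For Y62H9A.3 these ratios were -2.18 and -3.28. The same held for tomm-70, at -2.17 and -2.83. None of the 5 is a TOM or TIM gene on the list.

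Beyond the 6 members, 19 other genes of the import machinery were tested, and in limma 0 passed in either direction while 2 had an unadjusted p under 0.05. Over all genes these shares were 3.37% and 35.9%, so 0 in 19 is close to the first and 2 in 19 is below the second. Their median log2 ratio was 0.07, beside -0.01 over all genes tested, and they ranged from -0.22 to 0.30. The SAM complex inserts barrel proteins into the outer membrane. Its genes gop-3, the SAM50 homolog, and mtx-1, for a metaxin, had 0.07 (SD 0.09, limma adjusted p = 0.636) and -0.22 (SD 0.07, limma adjusted p = 0.165). Among the other TIM23 subunits, scpl-4, the TIM50 homolog, had 0.30 (SD 0.22, limma adjusted p = 0.132), and tin-44, the TIM44 homolog, had 0.25 (SD 0.15, limma adjusted p = 0.157). All 4 TIM23 subunits tested, with timm-23 and timm-17B.1 among them, had positive means, with a median of 0.26, but none passed. Over all genes tested, 6609 of 13685 had a positive mean.

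In the motor that pulls proteins into the matrix, all 4 genes also had positive means with a median of 0.15, and 0 passed. Over all genes, 6609 of 13685 had a positive mean and 3.37% passed. The mitochondrial HSP70 gene hsp-6 had 0.30 (SD 0.19, limma adjusted p = 0.125), and F45G2.8, a PAM16 homolog, had 0.21 (SD 0.21, limma adjusted p = 0.246). The 5 genes of the TIM22 route and of the small TIM chaperones, which guide carriers across the intermembrane space, had a median of 0.01. Of these, ddp-1 had 0.08 (SD 0.12) and C47G2.3, the TIM22 homolog, had -0.07 (SD 0.13). The 4 genes of the processing peptidases, which cut the presequence, had a median of 0.04, with mppa-1, for a matrix peptidase subunit, at 0.09 (SD 0.10) and immp-2, of the inner membrane peptidase, at 0.10 (SD 0.13). In both lists 0 genes passed in limma and 0 had an unadjusted p under 0.05, beside 3.37% and 35.9% of all genes.

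**Figure D4:**
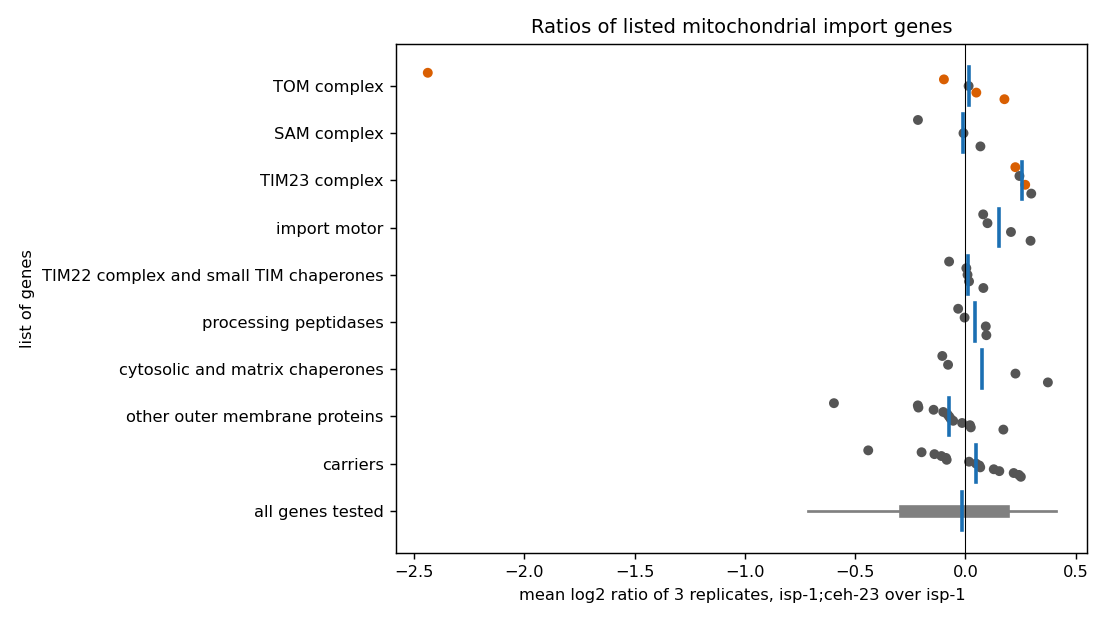
Mean log2 ratio over 3 replicates of each tested gene in 9 lists, with the 6 members in orange and each list's median as a blue line. For all genes tested, the thick grey bar runs from the 25th to the 75th percentile, -0.27 to 0.17, and the thin one from the 5th to the 95th percentile, -0.71 to 0.41. The point of tomm-70 at -2.44 lies far from all other listed genes.

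The chaperones that hand precursors to TOM70 in yeast and mammalian cells, hsp-90 and hsp-1, had -0.10 (SD 0.28) and -0.08 (SD 0.11). The matrix chaperonin gene hsp-60 had 0.37 (SD 0.18, limma adjusted p = 0.0813), and its co-chaperonin gene Y22D7AL.10 had 0.23 (SD 0.17). Of 13 other genes for proteins of the outer membrane or recruited to it, 0 passed in limma and 1 had an unadjusted p under 0.05. Over all genes these shares were 3.37% and 35.9%. The median of the 13 was -0.07. The lowest of them was fis-1, for a homolog of a mitochondrial fission factor, at -0.60 (SD 0.32, limma adjusted p = 0.0585), with -0.83, -0.72 and -0.24 in replicates 1, 2 and 3. For pdr-1, the Parkin homolog, the ratio was -0.21 (SD 0.09, limma adjusted p = 0.177).

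Carrier proteins of the inner membrane are the substrates for which TOM70 is best known in yeast. Of 15 carrier genes tested, 0 passed in limma, 2 had an unadjusted p under 0.05, and the median was 0.05. The ADP/ATP translocase genes ant-1.1, ant-1.3 and ant-1.4 had 0.05 (SD 0.16), -0.14 (SD 0.06) and -0.08 (SD 0.15). At the ends of the list were slc-25A18.2 at -0.44 (SD 0.42, limma adjusted p = 0.124) and slc-25A29 at 0.25 (SD 0.10, limma adjusted p = 0.132). Across all the lists, without tomm-70, 0 of 56 genes passed in limma and 7 had an unadjusted p under 0.05, 5 of them higher and 2 lower. Over all genes these shares were 3.37% and 35.9%. A count of 0 in 56 is close to the first, which itself moved with the setting, while 7 in 56 is below the second. Without replicate 3 the count past the adjusted threshold was 7 rather than 0, among them hsp-6 at 0.40, hsp-60 at 0.35, fis-1 at -0.78, slc-25A18.2 at -0.67 and slc-25A29 at 0.30. In that setting 5939 genes passed over all genes, beside 13685 tested with all replicates, so 7 of 56 was below the background share. Without replicate 2 the ratio of slc-25A18.2 was -0.25.

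The genes tomm-70 and ceh-23 both lie on chromosome III in the WBcel235 annotation, with 233 protein-coding genes between them. Of the 196 of these that were tested, 1 rose and 2 fell in limma (1.53%, beside 3.37% over all genes), with a median log2 ratio of -0.07 and a lowest value of -0.85. On the whole chromosome without tomm-70, 5 of 2140 genes rose and 28 fell, with a median of -0.06. Much nearer to ceh-23 lies tomm-7, with 5 protein-coding genes between them, and its ratio was 0.01.

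The measured genes next to tomm-70 did not share its ratio. On one side were ugtp-1 at -0.18 (SD 0.16) and nssp-33 at 0.23 (SD 0.13), and between them and tomm-70 was sma-2, for a SMAD protein of the body size pathway, at 0.25 (SD 0.13). On the other side, in order, came aak-1, mig-22 and mtss-1. Of these, aak-1, for a catalytic subunit of AMP-activated kinase, had -0.43 (SD 0.30), with -0.36, -0.76 and -0.18 in replicates 1, 2 and 3, and limma gave an adjusted p of 0.0899. The chondroitin synthesis gene mig-22 had -0.22 (SD 0.08), and mtss-1, for the mitochondrial single-stranded DNA-binding protein, had 0.01 (SD 0.08). None of these 6 genes passed in the main fit. By contrast, aak-1 passed without replicate 3 (-0.56, limma adjusted p = 0.00531) and with dye as a covariate (limma adjusted p = 0.0240). Over all genes, 5939 and 4151 passed in those 2 settings. Without replicate 2 the ratio of aak-1 was -0.27. Among the 50 measured genes on each side, 0 rose and 2 fell (2%), beside 3.37% called over all genes, and the lowest mean was -1.70, for cdc-25.3, a gene named after its values were seen. Without replicate 1 or without replicate 2, 0 of these 100 genes passed, and without replicate 3, 9 rose and 29 fell. In the stretch between ceh-23 and tomm-70, 24 rose and 65 fell without replicate 3. There, 1 rose and 0 fell without replicate 1, and 0 passed without replicate 2. Over all genes, 2018 rose and 3921 fell without replicate 3, beside 13685 genes tested with all replicates. Counts that high without replicate 3 were therefore not particular to this region. Without replicate 1, 9 rose and 94 fell over all genes.

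**Figure D5:**
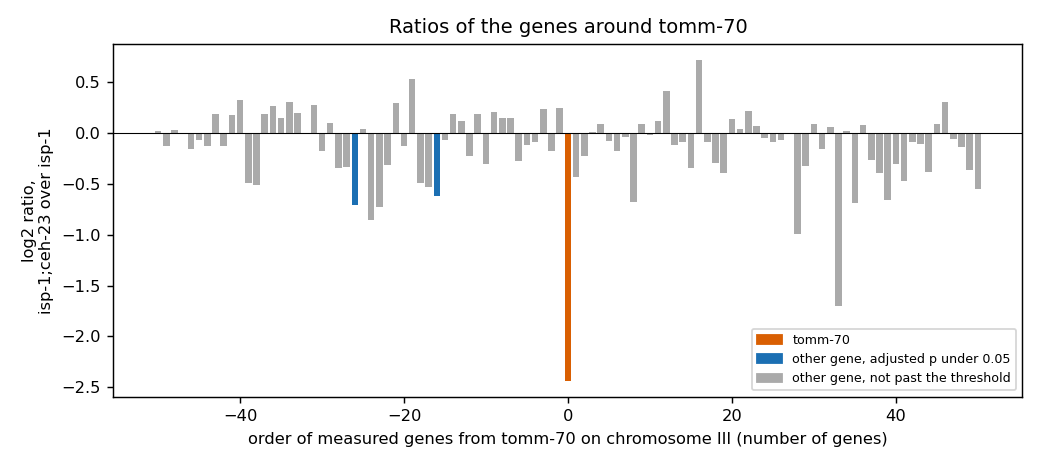
Mean log2 ratio over 3 replicates of the double mutant isp-1;ceh-23 over isp-1 for tomm-70 (orange) and the 50 measured genes on each side of it on chromosome III, in their order. The bar of tomm-70 at -2.44 is the longest, and the 2 blue bars are the other genes past the adjusted threshold.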

How the data were processed

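Per the file headers, the authors scanned and quantified the arrays with Agilent Feature Extraction 10.5.1.1, on a design that names the build ce4. The deposited scanner files hold median spot and background intensity values per channel, processed intensity values, a log10 ratio of Cy5 over Cy3, and other columns of 0 or 1 that flag spots, per the file headers. The deposited series table holds the same log10 ratio, within 0.005 of the scanner's on every array.

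Background was corrected by normexp (offset 50) and each array normalized by loess in limma 3.58.1 (R 4.3.3), with control and outlier spots at weight 0. The dyes in the labels gave the direction of each ratio, which was set as double mutant over isp-1. The level of a genotype on an array was taken after quantile normalization of average spot intensities between arrays (Aquantile). A probe was kept if one and the same genotype was well above background in all 3 replicates (26246 of 43603), and probes of one gene were averaged. Each of the 6 members had 1 probe. Probes were named through the RefSeq table of WBcel235. Sequence names gave the gene of 35017 of 43803 spots and accessions that of 356, while 8430 stayed unnamed.

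The mean of the replicates was compared with 0 by lmFit and eBayes (two-sided), and p-values were adjusted by Benjamini-Hochberg over 13685 genes (4.10 prior and 6.10 total degrees of freedom). Tested on simulated data for this comparison over 13685 genes, it recovered 66 of 100 changes of 0.73 log2 units and 100 of 100 of 1.46, with 11 calls among 13485 unchanged genes. The simulated noise was independent between genes and scaled to their median SD. In the real data the 49 genes of lowest ratio after tomm-70 had SDs of 0.53 to 1.25. The simulated rates therefore do not describe recovery or false calls in the real data. The labels call the replicates biological and say no more of their cultures. The members and lists were chosen with earlier results of these data known. In the lists, 61 of 66 names matched a gene and 57 genes were tested. The genes named are the members, up to 2 genes of each list with the smallest p, the 5 most like tomm-70, the 3 measured neighbours on each side and the mutated genes. Others named are tomm-7, tin-44, hsp-90, hsp-1, the ant-1 genes, timm-17B.2, ucp-4 and cdc-25.3, added after their values were seen. Alternatives were the scanner's and the series table's log ratios, other background corrections, centring, filters, probe rules, covariates, moderation, and each replicate left out.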

Additional observations from a re-analysis of the deposited data

How the results depend on the processing

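The tomm-70 log2 ratio stayed negative under all 18 other settings, from -2.57 to -2.33. With the scanner's log ratios, and with the series table, it was -2.57, and its difference from the partners was -2.74. Among the partners, tomm-20, timm-23 and timm-17B.1 kept their sign throughout. With the scanner's log ratios and with the series table tomm-40 was 0.038, while with median centring tomm-22 was -0.022, and with 1 replicate left out it ran from -0.022 to 0.171. Near 0, mtss-1 was -0.032 with median centring, -0.005 with slide as a covariate, -0.066 with the dye-flip array alone and -0.029 to 0.051 with 1 replicate left out. With the dye-flip array alone C47G2.3 was 0.016, and with the first array alone ddp-1 was -0.031. The cause of these moves was not tested.

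Of the 461 genes past the threshold, 459 had an adjusted p of 0.049 to 0.05, so their number moved with nearly every setting, which the background share in the report inherits. The genes that passed higher and lower were 758 and 976 with the scanner's log ratios, 759 and 977 with the series table, 420 and 1071 with an offset of 0, 1 and 1 without background correction, 0 and 0 with median centring, 0 and 1 without a filter on dim probes, 172 and 583 with a strict one, 0 and 1 with outlier spots kept, and 229 and 748 with the brightest probe. They were 1382 and 2769 with dye as a covariate, 175 and 1089 with slide as a covariate, 115 and 618 with the dye-flip array alone and 169 and 608 with the first array alone. Keeping outlier spots in the loess curve, an alternative chosen after seeing the data, gave 1 and 1. With 1 replicate left out they ran from 0 to 2018 and from 1 to 3921. The listed genes past the threshold, without tomm-70, were 1 with an offset of 0 (fis-1), 4 with dye as a covariate (hsp-6, hsp-60, fis-1 and slc-25A18.2), 1 with slide as a covariate (fis-1) and 0 to 7 with 1 replicate left out. The 5 genes most like tomm-70 no longer passed under 6 of the 18 settings. Signal over background was no limit for the 6 members, all well above background on every array, but it left timm-17B.2 and ant-1.2 without a tested value.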

Other observations

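The arrays of replicate 1 disagreed on the size of the tomm-70 difference after loess, by 0.67 log2 units (-2.83 on the dye-flip array and -2.17 on the first). With the scanner's own log ratios they differed by 0.04 (-2.65 and -2.61), and replicates 2 and 3 then had -2.41 and -2.68. Over all genes the median size of this gap after loess was 0.31, and 13.9% of genes had a larger one than tomm-70.

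Of the 6 probes of tomm-7, 5 had a gap of 0.75 to 1.01 and the other had 0.03. On the first array of replicate 1 they lay between 0.24 and 0.87, and on the dye-flip array between -0.38 and 0.22. In replicates 2 and 3 they averaged -0.08 and -0.13.

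A second TIM17 gene, timm-17B.2, was well above background in neither genotype on any of the 4 arrays, so no level is given for it. The probe of ucp-4, for an uncoupling protein, was an outlier spot in replicate 2, and its ratios on the other arrays were -0.36, -0.02 and -0.17.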
